A study of Mus musculus with 2 samples.

Results

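The cytosolic ribosomal protein genes encode the proteins of the 2 subunits of the ribosome. They were taken here by symbol: every name made of Rpl or Rps and a number, with Rplp0, Rplp1, Rplp2 and Rpsa, without pseudogene names and with at least 50 unique molecular identifiers (UMIs, each standing for 1 captured transcript molecule) over both matrices. Of the 32285 genes counted, 83 symbols met the name rule and 82 had enough UMIs, 50 of the large and 32 of the small subunit. Rpl10l had 0 UMIs and dropped out.

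The data were single-cell RNA libraries from subcutaneous MOC2 tumours, grown from a mouse oral squamous carcinoma line in female C57BL/6 mice of 6 to 7 weeks. Mice received daily intraperitoneal injections, once the tumours could be felt, of either vehicle (DMSO in Captisol, a cyclodextrin carrier) or Momordicine-I, a triterpenoid of bitter melon, at 30 mg/kg. There were 10 mice per arm, and the tumours of 3 mice per arm were pooled, sorted for CD45, the leukocyte surface protein encoded by Ptprc, and made into 1 library. With 1 pooled library per group there was no replicate, so no difference between treatments could be tested, and every interval below covers counting error alone.

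Each ribosome carries 1 copy of nearly all of these proteins, so a growing cell has to make them in matched amounts. Their mRNAs are short, stable and abundant, and most begin with a C and a run of pyrimidines, the 5′ terminal oligopyrimidine (TOP) motif, through which mTORC1 and LARP1 control their translation. Resting lymphocytes keep large stores of them, whereas neutrophils leave the marrow after their last division.

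The genes were spread over 19 chromosomes, with 14 on chromosome 7. Their mRNAs had a median length of 795 bases (345 to 5179), against 2672 bases for 12211 other coding genes with at least 50 UMIs. RefSeq start sites on GRCm38.p6 were given for 62 of the 82 genes. A TOP-like motif, a C followed by at least 4 bases that are each C or T, began within 5 bases of a start in 29 of the 62 (46.8%), on the transcribed strand. The same motif was found in 23.8% of 10270 other genes with at least 50 UMIs and in 21.2% of all 27025 genes with a start. The sequences below are a selection from the genes named in this report, so they do not show how common the motif was. Several more genes named below had no match and are not printed, among them Rpl10, Rps25, Rpl5, Rps4x, Rplp0, Rpsa, Rpl10a and Rps12. Each sequence runs from 15 bases before the RefSeq start through 15 bases from it, read on the strand of the gene. Capitals mark the motif.
Rps9, chr7:3704026-3704055, plus strand: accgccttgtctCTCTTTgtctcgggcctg
Rps27, chr3:90213634-90213663, minus strand: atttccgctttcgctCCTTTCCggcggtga
Rps27l, chr9:66946071-66946100, plus strand: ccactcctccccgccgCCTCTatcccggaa
Rpl12, chr2:32961697-32961726, plus strand: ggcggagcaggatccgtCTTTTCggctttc
Rps24, chr14:24490663-24490692, plus strand: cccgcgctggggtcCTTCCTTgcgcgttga
Rpl38, chr11:114668565-114668594, plus strand: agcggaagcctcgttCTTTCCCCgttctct
Rps6, chr4:86857353-86857382, minus strand: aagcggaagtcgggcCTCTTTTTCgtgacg
Rps28, chr17:33824548-33824577, minus strand: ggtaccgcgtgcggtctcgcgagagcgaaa
Rpl41, chr10:128549154-128549183, minus strand: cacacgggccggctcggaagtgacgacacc
Rpl37, chr15:5116598-5116627, plus strand: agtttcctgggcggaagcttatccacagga
The last 3 hold no match in this window. Rps27l and Rps24 each have a further listed start, also without a match. At the annotated start itself, 43.2% of 74 starts of ribosomal protein genes had a C or T, against 24.5% of 13118 starts of the other genes.

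**Figure D1:**
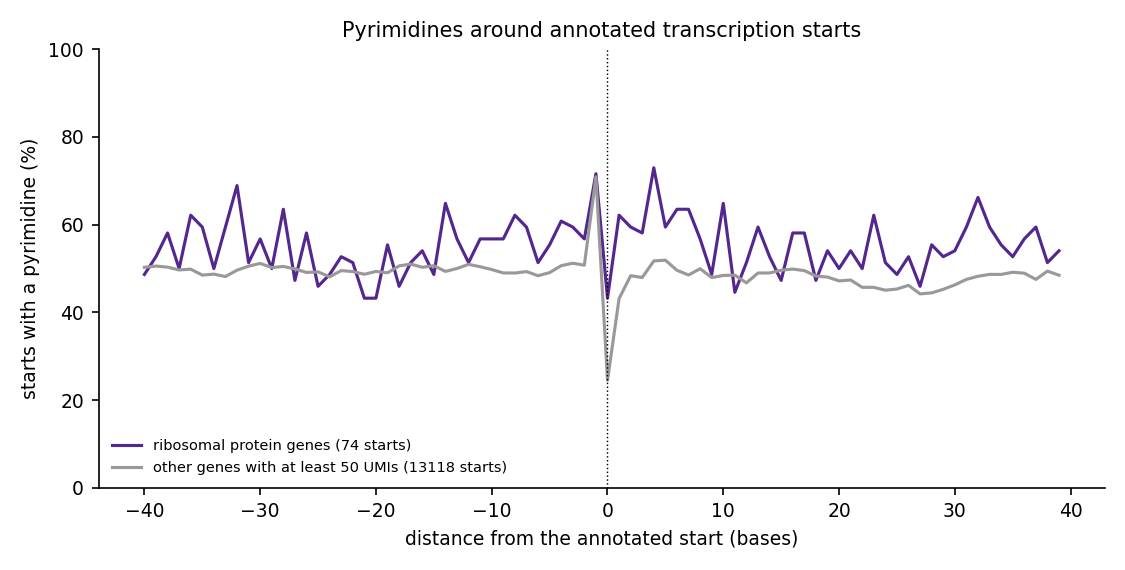
Percent of RefSeq start sites with a C or T (vertical axis) at each distance in bases from the annotated start (horizontal axis), for ribosomal protein genes (74 starts) and other genes with at least 50 UMIs (13118 starts). At the start the ribosomal protein genes stand at 43.2% and the other genes at 24.5%.

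The vehicle library held 3642 deposited barcodes and 33998491 UMIs, and the Momordicine-I library 4693 and 41804810. After barcodes under 200 genes or over 10% mitochondrial UMIs were left out, 3364 and 4370 remained, with medians of 5760 and 5002 UMIs, and 10 barcode sequences occurred in both libraries. Cell types were gates on marker genes, at least 2 markers and 3 UMIs of a list with 3 times the UMIs of every other list, so they are ranges rather than annotated types. They left 611 and 733 barcodes ungated. Of the T-gated cells, 62 of 259 and 74 of 247 lay within 2-fold of that limit, and 59 and 53 lay just outside it. Ptprc, which no gate used, was at 1222 and 1154 CPM (UMIs per 1000000 UMIs of the class) in neutrophil-gated cells and at 1150 and 899 CPM in T-gated cells. In the keratin-positive cells it was at 11.2 and 8.99 CPM, so these lacked the mark of the sort. In all sentences below, paired values give the vehicle library first and the Momordicine-I library second.

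The ribosomal protein genes took up very different shares of the transcriptome in different cells. In neutrophil-gated cells (2041 and 2862), the largest class, they made up a median of 2.92% of a cell's UMIs in the vehicle library and 3.54% in the Momordicine-I library. The medians were 14.8% and 15.8% in monocyte- and macrophage-gated cells (85 and 147), 23.4% and 17.4% in T-gated cells (259 and 247) and 24.0% and 23.1% in B-gated cells (218 and 87). Keratin-positive cells (71 and 191) had 18.1% and 23.5%. Neutrophils thus stood apart from every other class with enough cells. Of T-gated cells, 94.6% and 93.9% lay above the 95th percentile of the neutrophils (7.84% and 8.88%), and of B-gated cells 99.5% and 100%. Of the smaller classes, summed over their cells, natural killer cells had 22.9% and 25.1%, type 2 innate lymphoid cells 18.7% and 21.5%, and dendritic cells 17.5% and 15.7%. The natural killer and type 2 gates were not free of T-cell markers, found in 100% and 86.7% and in 73.7% and 81.0% of their cells. Of the natural killer cells 17 of 22 and 15 of 30 lay within 2-fold of the gate's limit, and of the type 2 cells 13 of 19 and 10 of 21.

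**Figure D2:**
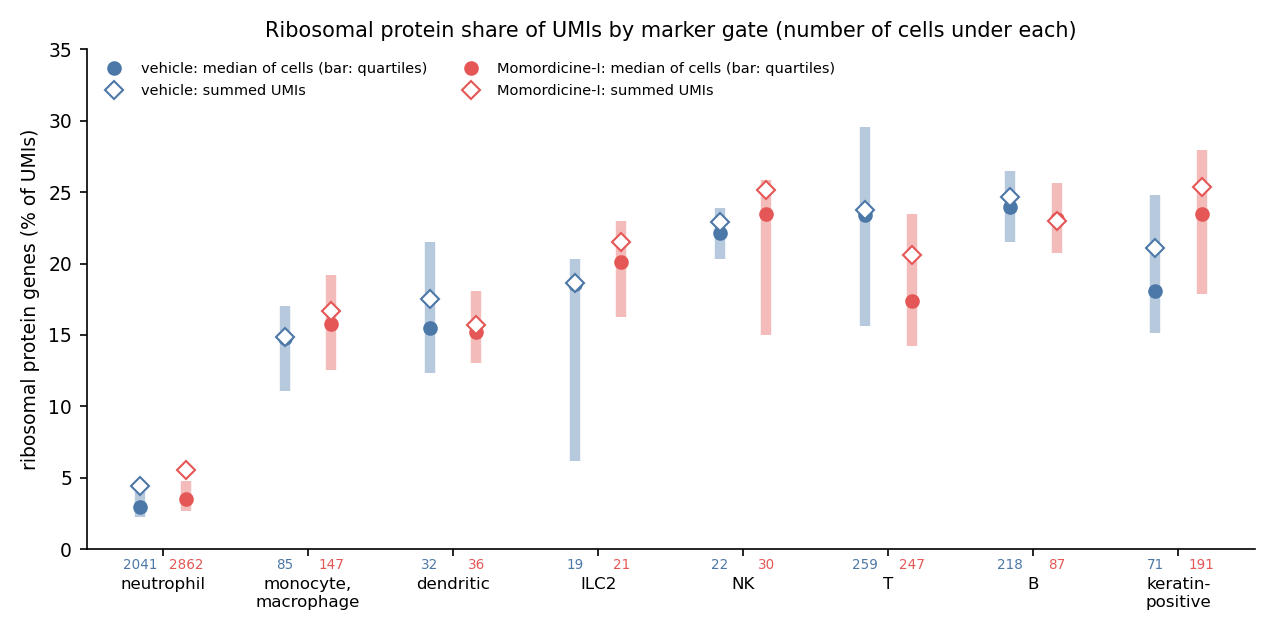
Percent of each cell's UMIs from the 82 ribosomal protein genes, by gated cell type and library. Filled points are medians of the cells, bars their quartiles, open diamonds the share of summed UMIs, and the numbers under each the cells. Neutrophils, with medians of 2.92% and 3.54%, lie below every other class.

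Within the T and neutrophil gates the subsets differed in the same order in both libraries. T cells with naive-cell markers (152 and 74) had 28.5% and 28.3% of their summed UMIs in ribosomal protein genes. Regulatory T cells (51 and 27) had 17.3% and 15.4%, and gamma-delta T cells (47 and 136) 19.1% and 16.8%. The naive-like subset was the highest of the 3 in both libraries. Among the 80 ribosomal protein genes measured in these comparisons, 53 were at least 1.5-fold higher in naive-like than in regulatory T cells in both libraries, where 7.16% of all genes were. Only Rps27l was at least 1.5-fold lower, against 22.1% of all genes. Against gamma-delta T cells 37 of 80 were higher, compared with 5.11% of all genes, and 0 were lower. The median ratio of naive-like over regulatory T cells was 1.58 and 1.79, with 0.821 and 0.794 over all genes. Monocytes and macrophages had no such common order: macrophages with C1q genes (35 and 45) had 16.4% and 15.6%, and monocytes without Arg1 (35 and 74) 13.9% and 17.4%. Neutrophils with Ly6g or Mmp8, genes of the more mature bone marrow and blood cell (529 and 983), had 3.70% and 4.41%, and those with Siglecf (184 and 274) 5.90% and 6.57%. The Siglecf-positive cells were the higher of the pair in each library.

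**Figure D3:**
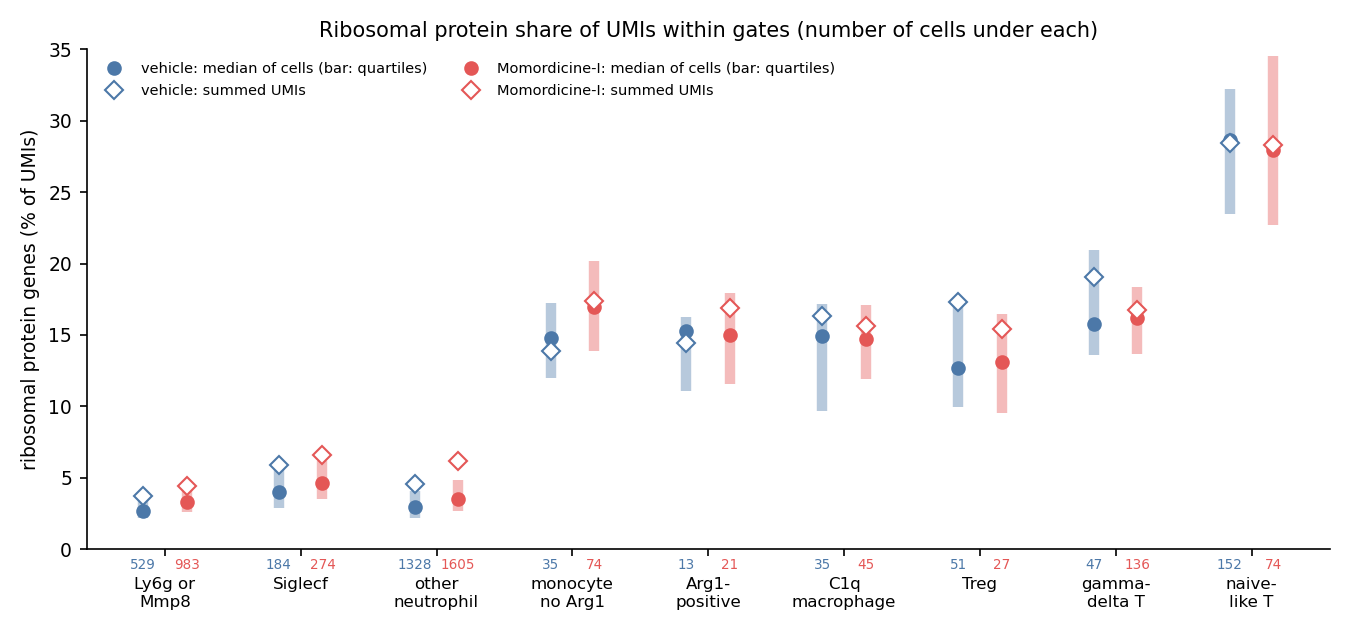
Percent of UMIs from ribosomal protein genes in the subsets of the T, monocyte and macrophage, and neutrophil gates, by library, with points for medians of the cells, bars for quartiles and open diamonds for summed UMIs. Naive-like T cells (28.5% and 28.3% of summed UMIs) are the highest and neutrophils with Ly6g or Mmp8 (3.70% and 4.41%) the lowest of those named.

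Nearly every gene of the group was higher in the other cells than in neutrophils. Of 81 measured, 77 were at least 1.5-fold higher in T-gated than in neutrophil-gated cells in both libraries, where 46.1% of all genes were. The median ratio was 5.65 and 3.76, with 1.72 and 1.49 for all genes. Only Rpl3l was at least 1.5-fold lower (20.2% of all genes). B-gated cells gave 78 of 81 higher (35.3% of all genes) and again Rpl3l alone lower (24.8%), and monocyte- and macrophage-gated cells 79 of 81 higher (36.0%). Rps9, Rps27l and Rpl7l1 were the remaining exceptions among T cells, and Rps27 and Rpl3l those among monocytes and macrophages.

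By role, the acidic stalk proteins, which recruit the elongation factors, followed the group. Rplp0, the base of the stalk, was at 481 and 624 CPM in neutrophils, 2806 and 2415 in T cells and 4082 and 5278 in keratin-positive cells. Rplp1 was at 930 and 1152 CPM in neutrophils and 6349 and 5657 in T cells. Both were several times lower in neutrophils in either library. Rps6, the small-subunit protein phosphorylated by S6 kinase, stood at 347 and 448 CPM in neutrophils, 1252 and 1443 in monocytes and macrophages, and 2145 and 1737 in T cells. Rpl5, which joins Rpl11 and the 5S RNA in the particle that can bind Mdm2, had 248 and 336 CPM in neutrophils and 2298 and 1947 in T cells. Rpsa, also described as a laminin receptor, had 457 and 595 CPM in neutrophils and 3788 and 3188 in T cells. For these genes each neutrophil value lay below each T-cell value. Rps2, a small-subunit protein near the mRNA entry, reached 5835 and 7192 CPM in keratin-positive cells and 445 and 652 in neutrophils.

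The 82 genes were not in equal amounts. The 5 with most UMIs, Rpl41 (245812 over both matrices), Rps29 (241891), Rplp1 (207523), Rps27 (197819) and Rps9 (192966), held 11.6% of the group's UMIs, and the top 10 held 21.5%. The 5 lowest were Rpl39l (50), Rpl3l (581), Rpl7l1 (3059), Rps27l (11497) and Rpl22l1 (28824), paralogs of other members. Counts come from 3′ ends, 1 tag per molecule, and are not divided by length. Reads shared with pseudogene copies or with near-identical genes such as Rps27rt cannot be told apart here.

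The make-up of the group, each gene's UMIs per 10000 ribosomal protein UMIs, was close to constant between libraries and differed between cell types. Between libraries the median absolute log2 difference over 78 genes was 0.06 to 0.10 in the 5 classes. Between classes of the vehicle library it was 0.09 (T and B) to 0.36 (neutrophil and keratin-positive cells). In neutrophils a few genes held more of the total. The top 5 made up 17.7% and 15.8% there, and 13.5% and 12.7% in T cells. Of 79 genes with at least 100 UMIs, 17 took at least 1.25-fold more of the group's UMIs in T cells than in neutrophils in both libraries and 8 took at least 1.25-fold less. Large-subunit genes made up 53.1% and 53.7% of the total in neutrophils, 53.7% and 54.2% in T cells, 52.5% and 52.2% in B cells, and 58.0% and 57.5% in keratin-positive cells.

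Rps9, a small-subunit protein bound early during assembly, departed furthest among the abundant genes. It lies at chr7:3703993-3706897 on the plus strand (mm10). It took 434 and 378 of 10000 ribosomal protein UMIs in neutrophils, 217 and 228 in monocytes and macrophages, 145 and 144 in T cells, 155 and 169 in B cells and 121 and 120 in keratin-positive cells. The order of the classes was the same in both libraries, and the neutrophil values lay well above the rest. Among neutrophils, those with Ly6g or Mmp8 had 551 and 497, and those with Siglecf 310 and 273. Neutrophils without a single UMI of any other marker list (525 and 775) had 586 and 526, so the excess was as large in cells without those markers. On the scale of all UMIs, Rps9 was at 1921 and 2096 CPM in neutrophils and 3449 and 2963 in T cells: it was lower there, but less so than the group.

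Rps27, a small-subunit zinc-finger protein (chr3:90212522-90213651, minus strand), had 422 and 352 per 10000 in neutrophils, 274 and 235 in T cells, 343 and 322 in B cells, 178 and 153 in monocytes and macrophages, and 84.0 and 84.5 in keratin-positive cells. By this share it was thus high in neutrophils, T cells and B cells and low in the keratin-positive cells, an order unlike that of Rps9. Natural killer cells, with 175 and 153, were near the monocytes and macrophages. In CPM Rps27 was lower in neutrophils (1866 and 1950) than in T cells (6496 and 4851). Rpl41, the shortest ribosomal protein, had 338 and 315 in neutrophils and 206 and 182 in T cells. Rpl10, which completes the large subunit at its joining surface, had 116 and 119 against 63.2 and 76.1, and Rps25 had 128 and 134 against 78.8 and 77.4. By this share all 3 were higher in neutrophils than in T cells in both libraries. Not every class lay below the neutrophils: Rpl10 had 137 and 138 in monocytes and macrophages. Rpl41 had 316 and 283 in keratin-positive cells, near the neutrophil values. In CPM all 3 were lower in neutrophils than in T cells, such as Rpl41 at 1494 and 1745 against 4878 and 3744.

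On the other side stood Rpl12, a protein of the stalk base. It had 67.6 and 68.0 per 10000 in neutrophils and 144 and 145 in T cells, and it was lower in neutrophils on the CPM scale as well, at 299 and 377 against 3420 and 2998. In neutrophils without other markers it was lower again, at 40.8 and 43.7. The low share was not particular to neutrophils. Monocytes and macrophages had 76.2 and 73.0 per 10000, and among them monocytes without Arg1 had 65.8 and 61.5. Rps24 had 160 and 162 in neutrophils and 283 and 298 in T cells. Rps20 had 93.7 and 97.7 against 171 and 156, Rpl5 56.0 and 60.7 against 96.8 and 94.4, and Rps4x, the X-linked small-subunit gene, 70.4 and 78.1 against 116 and 122. Among genes with at least 100 UMIs in each class and library, these 5 had the largest mean log2 differences in favour of T cells, from 0.68 for Rps4x to 1.09 for Rpl12. T and B cells were nearly alike: of the 78 genes with at least 100 UMIs in each class and library, only Rps27 (higher in B) and Rplp0 (lower in B, 90.7 and 81.1 against 118 and 117) passed 1.25-fold in both libraries.

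**Figure D4:**
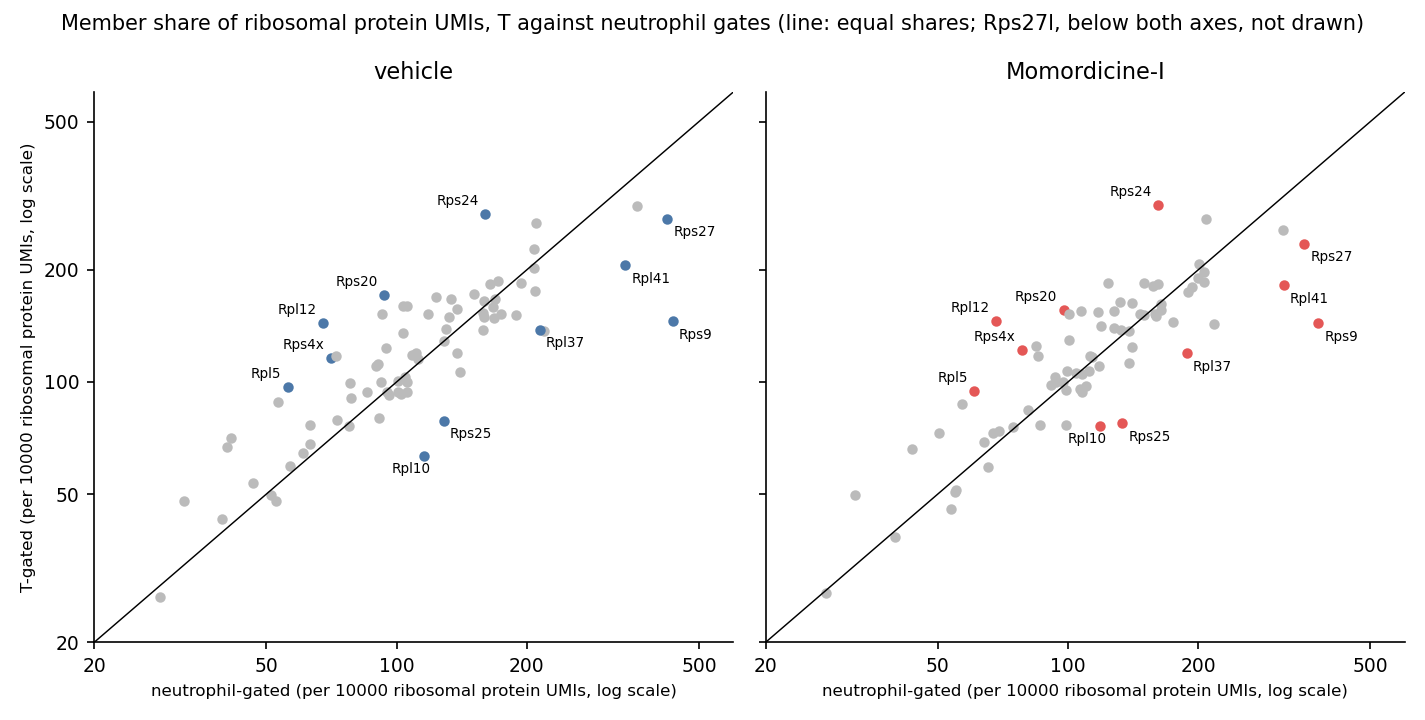
UMIs of each gene per 10000 ribosomal protein UMIs in neutrophil-gated (horizontal) and T-gated cells (vertical), log axes, 1 panel per library and 1 point per gene with at least 100 UMIs. Points under the line of equality, such as Rps9 (434 against 145 in the vehicle library), take more of the total in neutrophils. Rps27l lies below the drawn range.

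The paralogs had their own patterns. Rps27l (chr9:66946086-66949516), a relative of Rps27 that p53 induces, had 14.6 and 18.2 per 10000 in neutrophils, 14.8 and 12.4 in monocytes and macrophages, 17.0 and 11.1 in keratin-positive cells and 31.3 and 43.4 in dendritic cells. In T cells it had 3.42 and 3.54, and in B cells 1.91 and 1.42. Within T cells it was at 11.5 and 14.4 in the regulatory and 1.08 and 2.08 in the naive-like subset, the reverse of the group as a whole. Its UMIs came to 16.3% and 21.6% of those of Rps27 in dendritic cells and to 0.557% and 0.441% in B cells. Rpl22l1, the paralog of Rpl22, had 66.9% and 56.7% as many UMIs as Rpl22 in keratin-positive cells and 27.1% to 44.8% in the other 4 classes compared, and keratin-positive cells were the highest in both libraries.

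Rpl3l (chr17:24727820-24736143), known from skeletal and heart muscle, was detected at low levels in myeloid cells. It had 216 and 177 UMIs in neutrophils (13.9 and 8.88 CPM), 11 and 13 in dendritic cells (13.1 and 19.3 CPM) and 10 and 16 in monocytes and macrophages (7.13 and 7.68 CPM). T cells had 2 and 1 and B cells 0 and 0. Neutrophils without other markers still had 40 and 24 of them. The coding gene nearest to it, Msrb1, lies 499 bases away on the same strand, and with 3′ counts the part of reads from that gene was not tested.

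The question the design puts is whether these genes differ between Momordicine-I and vehicle tumours. As a share of summed UMIs they stood at 12.1% and 12.9% over all filtered barcodes, a ratio of 1.06. That ratio was below 1 when each cell was given the same weight (0.969) and in cells under 20000 UMIs (0.972). Within classes the direction differed. Neutrophils had 4.42% and 5.54%, a ratio of 1.25 (95% interval 1.248 to 1.256), and monocytes and macrophages 14.8% and 16.7%, a ratio of 1.13 (1.119 to 1.131). T cells had 23.7% and 20.6%, a ratio of 0.869 (0.865 to 0.873), and B cells 24.7% and 22.9%, a ratio of 0.930 (0.924 to 0.937). Keratin-positive cells had 21.1% and 25.3%, a ratio of 1.20 (1.200 to 1.206). Of these 5 classes, neutrophils, monocytes and macrophages, and keratin-positive cells were thus higher and T and B cells lower in the Momordicine-I library. The smaller classes did not divide along that line: natural killer cells and type 2 innate lymphoid cells were higher (ratios 1.10 and 1.15) and dendritic cells lower (0.899). The intervals treat the UMIs of a cell as independent and leave out the variation between mice.

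In neutrophils the higher share was present in all 3 subsets, with cell medians of 2.70% and 3.34% for those with Ly6g or Mmp8, 3.99% and 4.62% for those with Siglecf, and 2.97% and 3.51% for the rest. It held in each depth bin from 2000 UMIs up, such as 3.15% and 3.79% at 5000 to 10000 UMIs, but not at 500 to 2000 (4.06% and 3.85%). Cells of at least 20000 UMIs (132 and 157) had 7.56% and 9.94%, which raised the summed values. Markers of monocytes and macrophages were at 301 and 362 CPM in the neutrophil gate, those of B cells at 34.2 and 5.72. Neutrophils without a UMI of any other list had 3.07% and 3.69%, a ratio of 1.20, so the difference was nearly as large there.

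Of the 81 genes measured in neutrophils, 80 had a ratio above 1, with a median of 1.29 beside 1.12 for all genes. The share of all genes above or below 1 was not counted, here or in the classes that follow. Such counts therefore have only the medians beside them. Only 2 of the 81 genes were at least 1.5-fold higher (13.8% of all genes) and 1 at least 1.5-fold lower (4.69%). The group's shift was broad and small. Rpl10a, a large-subunit protein of the L1 stalk, was at 183 and 279 CPM (ratio 1.52, 1.46 to 1.59) and Rps27l at 64.7 and 101 CPM (1.56, 1.45 to 1.69). Rps2 (1.47) and Rps18 (1.46) were also among the higher, and Rpl3l was lower (0.640). Rps27 (1866 and 1950 CPM, ratio 1.05) and Rps9 (ratio 1.09) were close to 1. In cells under 20000 UMIs, 0 genes were past 1.5-fold in either direction.

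In monocytes and macrophages 75 of 81 genes had a ratio above 1 (median 1.15, 1.07 for all genes), and 0 were past 1.5-fold in either direction, where 11.6% of all genes were higher and 8.69% lower. Rpsa had 2077 and 2626 CPM (ratio 1.26), and Rps28 was on the other side with 2897 and 2550 CPM (0.880). Monocytes without Arg1 had the wider gap (cell medians 14.8% and 16.9%), whereas C1q macrophages were slightly lower in the Momordicine-I library.

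In T cells 75 of 80 genes had a ratio below 1 (median 0.882, 1.01 for all genes), and 0 were past 1.5-fold, where 11.0% of all genes were higher and 11.0% lower. The mix of subsets moved with it: naive-like cells made up 152 of 259 T cells in the vehicle and 74 of 247 in the Momordicine-I library, and gamma-delta cells 47 and 136. In naive-like cells alone the ratio was 0.995 (0.989 to 1.001). With the subsets weighted as in the vehicle library, the T-cell ratio was 0.960. Regulatory and gamma-delta cells had cell medians that were close in both libraries, at 12.7% and 13.1% and at 15.8% and 16.2%. Their summed shares were lower, with ratios of 0.890 and 0.879, near the 0.869 of all T cells. The lower share of T cells as a class was thus not seen in naive-like cells, but by summed UMIs it was seen in these other subsets. Rps28 (4087 and 2848 CPM, ratio 0.697) and Rps27 (6496 and 4851 CPM, ratio 0.747) were among the lowest relative to the group, and Rps12 (1.03) among the highest.

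In B cells 62 of 80 genes had a ratio below 1 (median 0.930, 0.979 for all genes), and 0 were past 1.5-fold (11.3% of all genes higher, 16.8% lower). Rpl41 had 4942 and 3833 CPM (ratio 0.775) and Rps24 7659 and 7716 (1.01). In keratin-positive cells 70 of 80 had a ratio above 1 (median 1.20, 0.921 for all genes), again with 0 past 1.5-fold (6.06% of all genes higher, 13.1% lower). Rpl35a (1.45) and Rpl30 (1.41) were among the highest, and Rps27l was lower, with 357 and 282 CPM (0.789). A single cell held 15.8% of the ribosomal protein UMIs of this class in the vehicle library and 8.52% in the Momordicine-I library, and 47 of 71 and 127 of 191 cells had under 5000 UMIs.

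**Figure D5:**
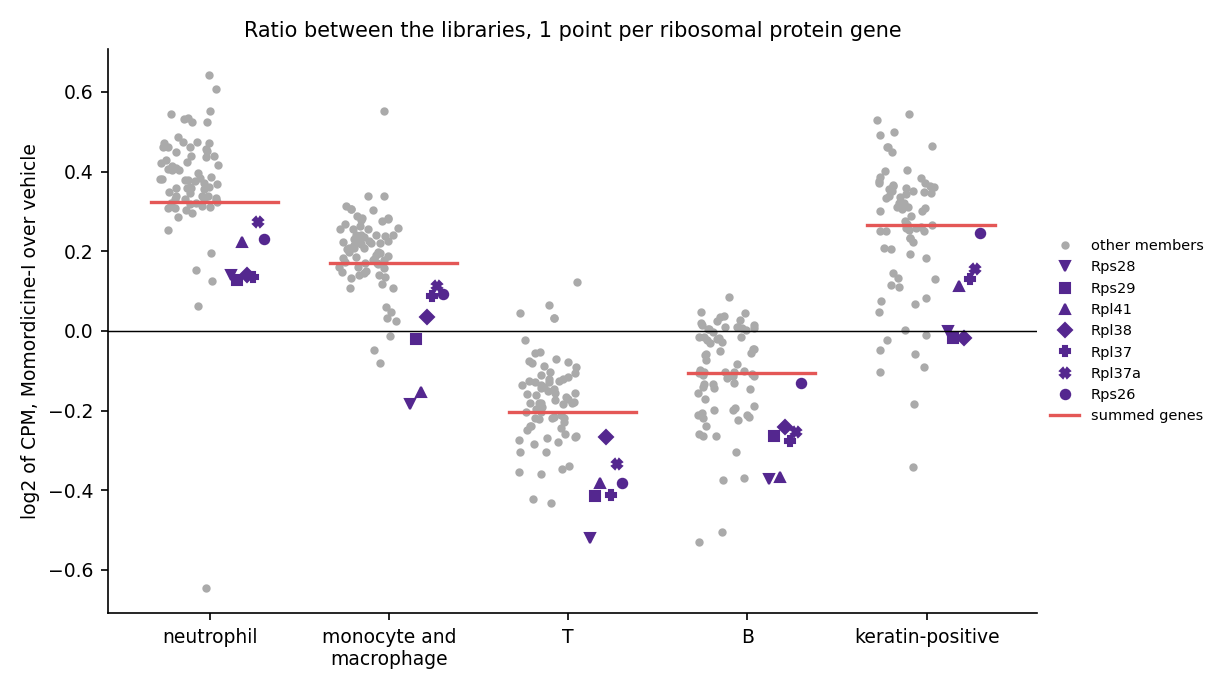
Log2 of the ratio of Momordicine-I to vehicle CPM (vertical) for each ribosomal protein gene in the 5 compared classes, 1 point per gene, with a red line at the ratio of the summed genes and the 7 genes that were lower than the group in all 5 classes as purple symbols. Median ratios are 1.29 in neutrophils, 1.15 in monocytes and macrophages, 0.882 in T cells, 0.930 in B cells and 1.20 in keratin-positive cells.

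Relative to the whole group, some genes moved the same way in every class. Of 78 genes with at least 100 UMIs in all 5 classes and both libraries, 7 were lower in the Momordicine-I library in all 5 and 12 were higher in all 5. No such count was made over all genes, so these numbers have no background to be read against. The 7 were Rps28 (mean log2 -0.28), Rps29 (-0.21), Rpl41 (-0.20), Rpl38 (-0.16), Rpl37 (-0.16), Rpl37a (-0.10) and Rps26 (-0.08), with a median mRNA length of 437 bases. The 12, among them Rpl13, Rpl30, Rps18 and Rps23, had a median of 720 bases. Some lay close to the group, such as Rps23 with a log2 of 0.002 in B cells and 0.001 in keratin-positive cells. Rps28, for example, had 151 and 133 per 10000 in neutrophils, 195 and 153 in monocytes and macrophages, 172 and 138 in T cells, 183 and 152 in B cells and 160 and 133 in keratin-positive cells, so it was lower in each. Members under 500 bases had a median ratio of 1.24 in neutrophils and 0.831 in T cells, those of at least 1000 bases 1.30 and 0.868. Other coding genes went the other way in neutrophils (1.20 under 500 bases, 1.10 from 1000 bases). So they did in monocytes and macrophages (1.09 and 1.06) and in keratin-positive cells (0.987 and 0.918). In T cells (0.983 and 1.02) and B cells (0.807 and 1.03) they went the same way as the members. All classes share the same pair of libraries, so an effect of treatment on these genes and a difference in how the libraries were made cannot be told apart. Genes with and without a motif match at a RefSeq start had like ratios. In neutrophils the median log2 ratio was 0.36 for the 29 genes with it and 0.38 for 32 without. In T cells it was -0.18 for 29 and -0.18 for 31. Only RefSeq starts were read, so a gene without a match may still have the motif at another start. The split thus cannot tell whether mRNAs with and without the motif behaved alike.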

How the data were processed

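CD45-sorted cells of 2 pooled tumour samples were profiled with 10x 3′ chemistry. Cell Ranger 6.0.2 and mm10 are named in the submitters' processing notes. The authors deposited filtered matrices of raw UMI counts, with gene names in the files. The number of per-sample columns not used was 0.

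Barcodes with at least 200 genes and at most 10% mitochondrial UMIs were kept and gated by 10 marker lists; for the reported values doublets were treated only by the gate's dominance rule. Counts were summed by gate and library and given as percent or CPM. Shares and ratios have exact 95% intervals (Clopper-Pearson for shares, conditional binomial for ratios), and classes with at least 50 cells and 100000 UMIs in each library were compared. A gene was measured in a class with at least 20 UMIs over both libraries; members past 1.5-fold were counted beside all genes. CPM is not corrected for length, so no levels were compared between genes by it. The named genes were the 5 with most and the 5 with fewest UMIs, the role and paralog lists, the 5 most T-weighted and 5 most neutrophil-weighted, and per class the 5 higher and 5 lower farthest from the group's ratio; Rpl30 was among these, and genes moving alike in all 5 classes were added after their values were seen.

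The members and lists were chosen with earlier results of these data known. Other gates, filters, doublet removal with Scrublet, thinning to 1000 UMIs, equal weight per cell and other denominators were tried, and 4 settings were added after seeing the data. Start sequences and lengths came from RefSeq on GRCm38.p6 and from the reference annotation. Python 3.11.15, numpy 2.4.6, scipy 1.17.1, scanpy 1.11.5 and matplotlib 3.10.9 were used. Scripts were tested on simulated data. Some single-gene results are not reported here.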

Additional observations from a re-analysis of the deposited data

Results flagged for a closer look

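The ratio of the ribosomal protein share between libraries pointed different ways in different classes: it was 1.25 in neutrophils, 1.13 in monocytes and macrophages and 1.20 in keratin-positive cells, but 0.869 in T cells and 0.930 in B cells. These classes were set side by side because they moved in opposite directions, and the difference between them was not tested, since each group had 1 library.

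The barcodes left out for more than 10% mitochondrial UMIs, 274 and 322 of them, were outside the comparisons. Their summed ribosomal protein share was 4.05% under vehicle and 9.44% under Momordicine-I, while the medians of the barcodes were 2.30% and 2.50%. The second sum was set beside the first because it stood above the control value.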

How the results depend on the processing

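The ratio of the ribosomal protein share kept its direction in each of the 5 classes under every setting run, and that over all barcodes did not: against 1.06, it was 0.959 with cells thinned to 1000 UMIs, 0.969 as a mean over cells and 0.972 in cells under 20000 UMIs; it was also 1.067 with a 5% mitochondrial limit, 1.068 without the highest Scrublet scores and 1.078 without the 5 most abundant genes. Marker dominance of 2 gave 1.237 in neutrophils, 1.152 in monocytes and macrophages and 0.893 in T cells, and a dominance of 5 gave 1.230, 1.137 and 0.843, with 1.176 in keratin-positive cells. The 5% mitochondrial limit gave 1.223 in neutrophils, 0.848 in T, 0.965 in B and 1.086 in keratin-positive cells. Without the highest Scrublet scores neutrophils had 1.265 and monocytes and macrophages 1.104. In class order (neutrophil, monocyte and macrophage, T, B, keratin-positive), thinning gave 1.173, 1.115, 0.847, 0.963 and 1.226, the mean over cells 1.174, 1.103, 0.849, 0.959 and 1.174, leaving out the 5 most abundant genes 1.282, 1.140, 0.879, 0.939 and 1.211, and cells under 20000 UMIs 1.213, 1.186, 0.852, 0.949 and 1.258. A wider set of gene names gave 1.244 in neutrophils, and a denominator without mitochondrial, Malat1 and haemoglobin UMIs 0.945 in B cells. Among the settings chosen after seeing the data, leaving Hdc out of the neutrophil markers gave 1.273, 1.154 and 0.878 in neutrophils, monocytes and macrophages, and T cells. Neutrophils without other markers had 1.204, and subsets weighted as in the vehicle library gave 1.267 in neutrophils and 0.960 in T cells. The number of genes at least 1.5-fold higher in neutrophils, 2 as reported, was 0 at a dominance of 2, thinned, as a mean over cells and under 20000 UMIs, and 1 at a dominance of 5 and a 5% limit. The lower count in neutrophils, 1, became 0 under 20000 UMIs. Counts of 0 became, for monocytes and macrophages, 1 higher at a dominance of 2, at 5 and as a mean over cells, and 2 higher and 1 lower when thinned. For T cells 1 was lower at a dominance of 5, for B cells 1 at a dominance of 2, a 5% limit and as a mean over cells, and for keratin-positive cells 3 were higher when thinned, 2 as a mean over cells and 5 under 20000 UMIs. Of 1759 single-gene values under these settings 434 moved beyond their counting interval, or by over 1.25-fold for shares of the group, and 0 of those past 1.5-fold turned direction. No paired analysis was possible because each group had 1 library.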

Other observations

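Other genes of the ribosome pathway were read from lists chosen with earlier results of these data known, so their counts are descriptions. Fau, whose product is cleaved into a ubiquitin-like protein and the small-subunit protein eS30, stood outside the name rule. It was at 3263 and 3746 CPM in neutrophils and 4535 and 4249 CPM in T cells, under 1.5-fold apart in either library. Fau was the exception in its list. Of the 4 measured ribosomal protein genes outside the rule, 3 were at least 1.5-fold higher in T cells than in neutrophils in both libraries. The median ratio of the 4 was 3.89 and 2.92, and 46.1% of all genes were higher by the same rule.

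Of 21 other TOP mRNAs, 19 were at least 1.5-fold higher in T cells than in neutrophils in both libraries (median ratio 4.45 and 3.44), where 46.1% of all genes were (median 1.72 and 1.49). Eef1a1, which brings aminoacyl-tRNA to the ribosome, was at 905 and 1131 CPM in neutrophils and 5641 and 5123 in T cells, and Rack1, a scaffold on the small subunit, at 259 and 338 and at 1971 and 1689. Tpt1 was less uneven, at 3119 and 3312 against 7735 and 7165. Of 22 ribosome biogenesis genes 20 were higher in T cells by the same rule (median 3.70 and 3.00, again beside 46.1% of all genes), such as nucleolin (Ncl) at 226 and 258 against 844 and 759 CPM. The mitochondrial ribosome gave 51 of 78 higher and 1 lower. The regulators of TOP translation gave 2 of 10 higher, below the 46.1% of all genes, and 1 lower, where 20.2% of all genes were.

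Between libraries, 30 of 78 mitochondrial ribosomal protein genes were at least 1.5-fold higher in the Momordicine-I neutrophils and 0 lower. Of all genes 13.8% were higher and 4.69% lower. The median ratio was 1.42, beside 1.12 for all genes and 1.29 for the cytosolic genes. Summed, the mitochondrial ribosome genes made up 0.164% and 0.204% of neutrophil UMIs. That ratio was 1.24, close to the 1.25 of the summed cytosolic genes, so the mitochondrial genes were not further apart as a sum. In B cells 1 mitochondrial ribosomal protein gene was higher and 22 of 71 were lower (median 0.844). Of all genes 11.3% were higher and 16.8% lower (median 0.979), and the Momordicine-I library held only 87 B cells. Among the other TOP mRNAs 2 of 21 were higher in neutrophils, Npm1 at 101 and 156 CPM being one of them, and among biogenesis genes 3 of 22. Of the 10 regulators of TOP translation, 1 was at least 1.5-fold higher and 2 were lower in T cells (median 0.877). Of all genes in T cells 11.0% were higher and 11.0% lower. Larp1, which binds the TOP motif, was among the lower, at 138 and 90.6 CPM in T cells (ratio 0.657). In neutrophils Larp1 was at 23.5 and 27.0 CPM.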
